A study of Homo sapiens with 12 samples.

Results

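The 10 genes described here carry out the storage of fatty acids in lipid droplets, or their release from them, and are HILPDA, G0S2, PNPLA2, PLIN2, PLIN3, LPIN1, DGAT1, DGAT2, FABP3 and FABP5. They were picked by gene symbol, though with earlier results of these data known, and all 10 were found among the 20263 genes of the deposited expression table. Each of the 10 passed the filter on low values, a level of at least 1 TPM, a share of the library's transcripts that is corrected for gene length, in at least 3 of the 12 libraries, which 11731 genes passed. PLIN2 and G0S2 passed it narrowly, reaching 1 TPM in 6 and 5 libraries, mainly in the groups and libraries where they were high, so a difference for these 2 genes is partly built into the filter.

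Messenger RNA was sequenced from U-87 MG (U87), an established human glioblastoma cell line, in 4 groups of 3 libraries. All 4 groups were held in hypoxia at 1% O2 for 72 h per the series record, while the study's methods give a shorter exposure for mRNA measurements. The vector group carried an empty vector, the HIF1α-ko group lacked HIF1α, the HIF2α-ko group lacked HIF2α, and the HIF1α/2α-ko group, called the dual knockout below, lacked both. No normoxic library was analysed here, so each comparison is between genotypes within hypoxia. The sources used here do not say how the knockouts were made, whether a group was 1 clone, or whether the 3 libraries of a group were separate cultures. The p-values therefore measure the spread between these libraries, which may be technical.

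A lipid droplet is a core of triacylglycerol and sterol esters under a single phospholipid layer coated with perilipins. Its triacylglycerol is built from fatty acids by acyltransferases, a lipin phosphatase and the DGAT enzymes, and is broken down again by adipose triglyceride lipase (ATGL), which HILPDA and G0S2 inhibit. Cells short of oxygen burn less fatty acid in mitochondria and are known for filling with droplets, and glioblastoma cells are known to store fat in this way.

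The targeted genes were read first as a check on the labels. HIF1A was 112, 110.0 and 152 TPM in vector and 57.3, 49.5 and 38.6 TPM in HIF1α-ko. In the dual knockout HIF1A was 89.2, 67.8 and 69.4 TPM, below every vector library but above every HIF1α-ko library, by 0.64 on the log2(TPM + 1) scale (adjusted p = 0.0287). In HIF2α-ko, where HIF1A was not targeted, it was 108, 76.1 and 76.6 TPM and overlapped the dual knockout, which differed from it by -0.19 (interval -0.62 to 0.23). EPAS1, which encodes HIF2α, was 286, 333 and 346 TPM in vector, against 87.6 to 118 TPM in HIF2α-ko and 101 to 129.9 TPM in the dual knockout. HIF1A transcript therefore set HIF1α-ko apart but did not separate the dual knockout from HIF2α-ko, so it does not check the loss of HIF1α in the dual knockout, and transcript levels do not measure the proteins. The mesenchymal markers VIM, CD44 and CHI3L1 were high in every library (at least 5635, 399 and 228 TPM), but differed between genotypes: VIM fell by 0.81 in HIF2α-ko and by 0.96 in the dual knockout (adjusted p = 0.0086 and 0.00041), and CHI3L1 fell by 1.12 in HIF1α-ko (adjusted p = 0.0388), where CD44 differed by -0.98 without passing the test (adjusted p = 0.0536). Their part in the results below was not tested. In contrast, the astrocyte markers GFAP and S100B stayed under 1 TPM, and NES, also read as a marker of such a line, was 2.64 to 6.17 TPM. Adipocytes, the cells best known for droplets, were not visible by their defining markers: ADIPOQ was listed at 0 in all libraries and LEP, PLIN1 and CIDEC stayed under 1 TPM, although FABP4 reached 1.78 to 7.31 TPM. In bulk RNA, fewer cells of a kind and less RNA per cell cannot be told apart.

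The library vector replicate 1 stood apart from the other 2 vector libraries. It differed from their mean by at least 1 on the log2(TPM + 1) scale at 787 of the 11731 genes (6.71%), against 190 and 196 genes for vector replicates 2 and 3. Among them were 4 of the 10 storage genes, G0S2, LPIN1, DGAT2 and FABP3, all higher in vector replicate 1, by 1.65, 1.39, 1.10 and 2.33 on the log2 scale. HILPDA was higher there by 0.95. The replicate 1 library of the dual knockout also stood apart, at 624 genes (5.32%), but at 0 of the 10 storage genes. What set these libraries apart was not tested, and each storage gene's comparison with vector is given with and without vector replicate 1.

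RefSeq promoter windows (GRCh38.p14, the 250 bases before a transcript start) were found for 6 of the 10 genes, 8 windows in all, since LPIN1 has 3. The windows were searched for the core letters that HIF dimers are known to bind, ACGTG or GCGTG, on both strands, so that CACGT and CACGC count on the strand shown, and the letters CACGTG count once for each strand. Of the 8 windows, 5 held at least 1 such core, against 43.2% of all 35116 promoter windows. PLIN2 held 4 cores, G0S2 4 and PLIN3 3, and 7.76% of all windows held 3 or more. FABP3 held 2, LPIN1 held 1 in its middle window and 0 in the others, and PNPLA2 held 0. A core is a description of the sequence, not a shown binding site. The PLIN2 (chr9:19127493-19127742, minus strand), G0S2 (chr1:209675162-209675411, plus strand) and PLIN3 (chr19:4867668-4867917, minus strand) windows are printed because they hold the most cores, and FABP3 (chr1:31373077-31373326, minus strand) because FABP3 rose in all 3 knockouts. All run 5′ to 3′ along the gene, with the cores in capitals.
PLIN2: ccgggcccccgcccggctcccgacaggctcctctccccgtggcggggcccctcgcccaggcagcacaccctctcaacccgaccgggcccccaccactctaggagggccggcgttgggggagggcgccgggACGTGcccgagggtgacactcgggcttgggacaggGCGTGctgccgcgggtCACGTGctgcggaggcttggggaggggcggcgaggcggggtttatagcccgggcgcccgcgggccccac
G0S2: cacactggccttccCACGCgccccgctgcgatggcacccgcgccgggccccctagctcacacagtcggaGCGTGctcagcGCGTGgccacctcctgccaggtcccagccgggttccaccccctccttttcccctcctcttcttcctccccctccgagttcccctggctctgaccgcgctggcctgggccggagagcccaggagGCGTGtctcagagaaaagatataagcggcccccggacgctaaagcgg
PLIN3: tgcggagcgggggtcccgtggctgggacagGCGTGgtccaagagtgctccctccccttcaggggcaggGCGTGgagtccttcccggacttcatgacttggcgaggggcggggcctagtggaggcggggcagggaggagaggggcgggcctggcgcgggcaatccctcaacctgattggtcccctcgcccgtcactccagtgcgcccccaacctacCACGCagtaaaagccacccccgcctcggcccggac
FABP3: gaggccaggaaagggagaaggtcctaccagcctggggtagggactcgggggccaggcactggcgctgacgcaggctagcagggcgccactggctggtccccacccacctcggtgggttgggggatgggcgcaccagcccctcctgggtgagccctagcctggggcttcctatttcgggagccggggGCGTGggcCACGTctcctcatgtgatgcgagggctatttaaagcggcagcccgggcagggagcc

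The storage genes did not move as 1 block. HILPDA, by far the most abundant of the 10, was highest in HIF2α-ko and lowest in the dual knockout. LPIN1 rose in HIF1α-ko and most in the dual knockout, FABP3 rose in all 3 knockouts to a similar level, DGAT2 rose in HIF1α-ko and the dual knockout, and FABP5 rose in the dual knockout. PLIN2 and G0S2 were lower in the dual knockout than in HIF2α-ko, and PLIN3 passed the test in 0 comparisons. The calls against vector in the single knockouts, and those of PLIN2 and G0S2, were lost when certain single libraries were left out. With only the groups compared in the fit, every single knockout call against vector was lost too. The adjusted p was then 0.0530 for LPIN1 and 0.0790 for DGAT2 in HIF1α-ko, 0.0526 and 0.0934 for FABP3 in HIF1α-ko and HIF2α-ko, and 0.116 for HILPDA in HIF2α-ko. The rise of FABP5 against vector was lost under median ratio or quantile scaling. Details are given below for each gene. The plot of levels by library shows each gene in all 12 libraries.

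**Figure D1:**
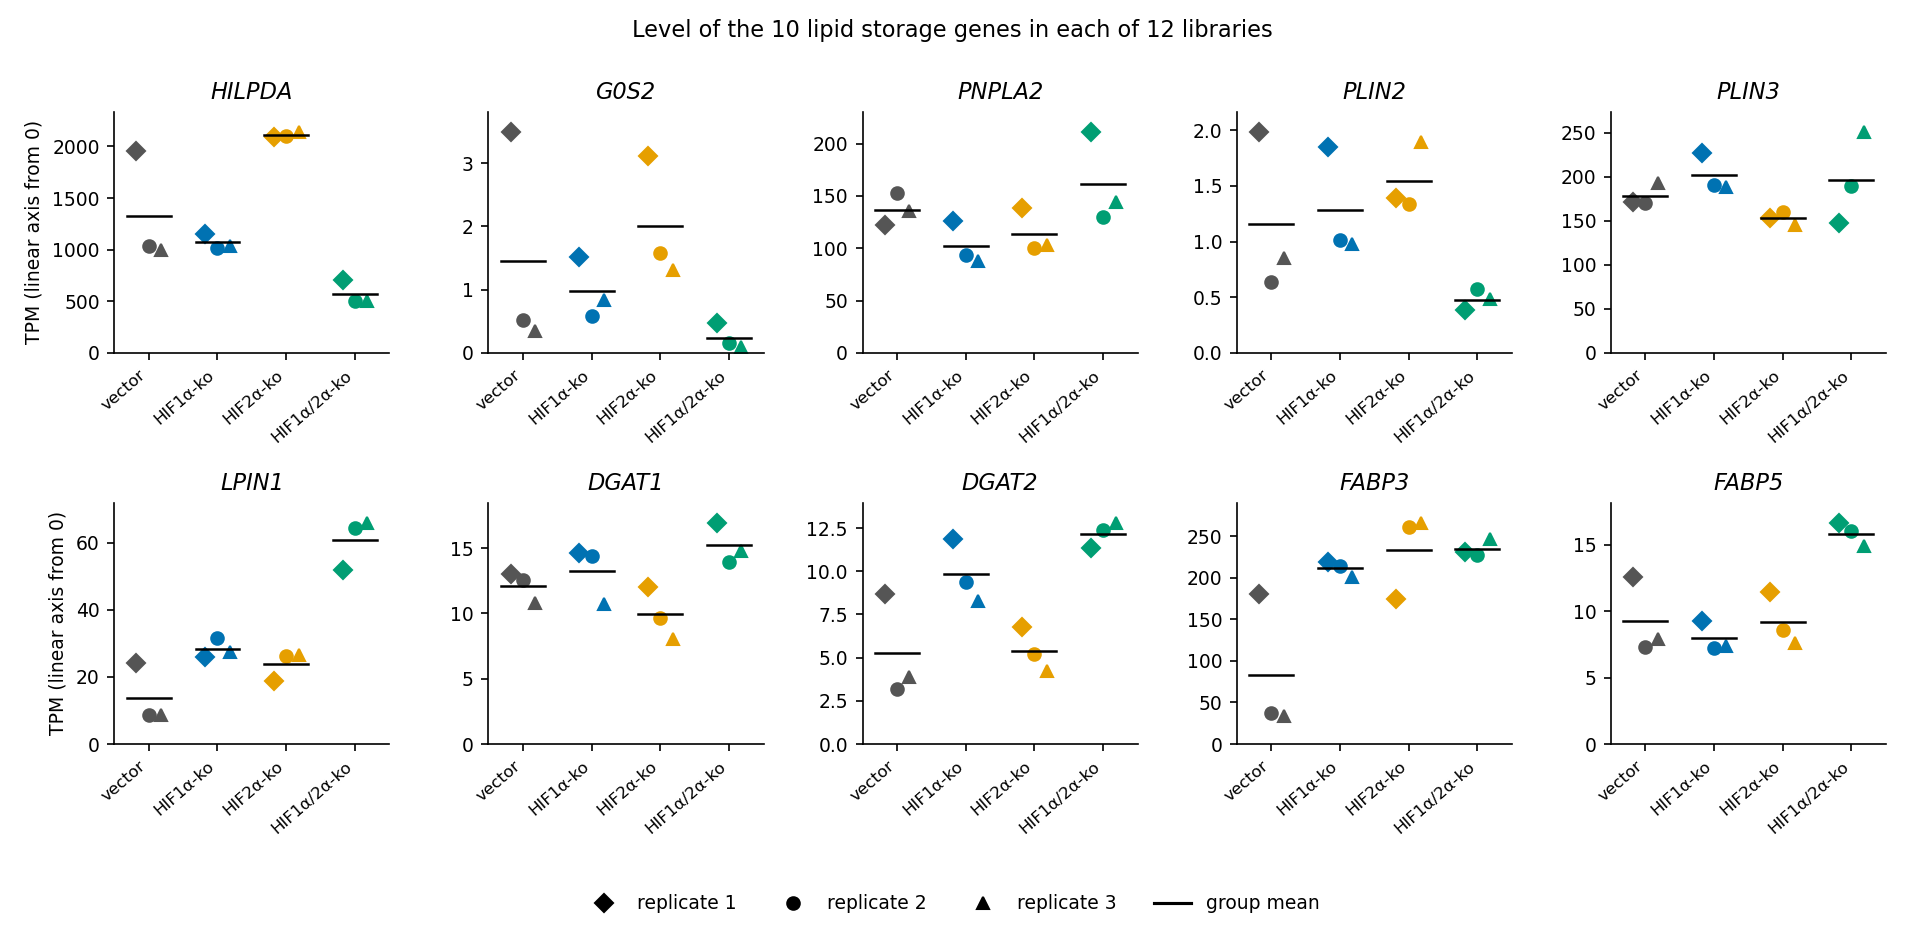
Level of the 10 storage genes in TPM on linear axes from 0, 1 panel a gene, with 1 point for each library (symbol by replicate number) and a line at the mean of each group of 3. Vector replicate 1, the grey diamond, sits above the other 2 vector libraries for HILPDA (1958 against 996 and 1037 TPM), LPIN1, DGAT2, FABP3 and G0S2.

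HILPDA (chr7:128455849-128458418, plus strand, GENCODE 29 on GRCh38), the hypoxia-inducible ATGL inhibitor and a textbook HIF1 target, was 1958, 1037 and 996 TPM in vector. It was 1157, 1015 and 1040.1 TPM in HIF1α-ko, 2094, 2104 and 2137 TPM in HIF2α-ko, and 709, 506 and 506 TPM in the dual knockout. All 3 dual knockout libraries lay below all 9 others, and all HIF2α-ko libraries lay above all others, with vector replicate 1 the nearest. Changes are given as log2 fold changes of TPM + 1, tested with limma across all genes with Benjamini-Hochberg adjustment. In the dual knockout HILPDA fell by 1.16 against vector (SE 0.22, adjusted p = 0.0010), to 0.448 times its level, and by 0.84 without vector replicate 1 (adjusted p = 0.00053). It also fell by 0.92 against HIF1α-ko (adjusted p = 0.0087) and by 1.90 against HIF2α-ko (adjusted p = 3.4e-05), and it was 0.98 lower in HIF1α-ko than in HIF2α-ko (adjusted p = 0.0075).

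Removing HIF1α alone left no detectable difference in HILPDA from vector, at -0.24 with a 95% confidence interval of -0.72 to 0.23, or 0.07 without vector replicate 1. Removing HIF2α alone was followed by a rise of 0.74 (adjusted p = 0.0493), which became 1.05 without vector replicate 1 (adjusted p = 0.00062). This call was fragile: it was lost when any 1 of 10 libraries was left out, all but vector replicate 1 and dual knockout replicate 1, with changes of 0.57 to 0.75 and adjusted p from 0.0596 to 0.199, and under median ratio scaling (adjusted p = 0.0612) or without the low value filter (adjusted p = 0.0914). It was also lost with 0.1 added to TPM in place of 1 (adjusted p = 0.0504) and without the mean-variance trend of limma (adjusted p = 0.0651). HILPDA thus differed by 0.74 between HIF2α-ko and vector, and by -0.92 between the dual knockout and HIF1α-ko. The cause of this was not tested. The interaction, which is the dual change minus the sum of the 2 single changes, was -1.65 (SE 0.31, adjusted p = 0.0042), and -1.97 without vector replicate 1 (adjusted p = 6.5e-05).

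G0S2 (chr1:209675420-209676388, plus strand), the other ATGL inhibitor, was 3.49, 0.520 and 0.342 TPM in vector and 1.52, 0.590 and 0.841 TPM in HIF1α-ko. It was 3.11, 1.58 and 1.31 TPM in HIF2α-ko and 0.468, 0.161 and 0.0917 TPM in the dual knockout. The dual knockout libraries lay below all HIF1α-ko and HIF2α-ko libraries but overlapped vector, whose own libraries ranged widely. At such low levels a change of TPM + 1 understates the change of TPM. G0S2 fell by 1.24 in the dual knockout against HIF2α-ko (SE 0.39, adjusted p = 0.0201), a call lost without HIF2α-ko replicate 1 (-0.99, adjusted p = 0.0848) or dual knockout replicate 2 or 3 (-1.20 and -1.15, adjusted p = 0.0570 and 0.0649).

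Against vector, G0S2 did not pass the test in any knockout, with changes of -0.10, 0.47 and -0.77 in HIF1α-ko, HIF2α-ko and the dual knockout and intervals of -0.95 to 0.74, -0.37 to 1.32 and -1.61 to 0.08. Without vector replicate 1 these were 0.45, 1.02 and -0.22, the second called (adjusted p = 0.0194), and without vector replicate 3 it was 1.09 lower in the dual knockout (-1.09, adjusted p = 0.0488). The interaction was -1.14 (adjusted p = 0.161), and -1.69 without vector replicate 1 (adjusted p = 0.0051). A fit with the replicate number as a block over all 4 groups called the dual knockout change against vector and the interaction (adjusted p = 0.0233 and 0.0347). Between knockout groups, a fit with the replicate number as a block also called the fall of 0.66 in the dual knockout against HIF1α-ko (adjusted p = 0.0048, 0.227 without the block) and a lower level in HIF1α-ko than in HIF2α-ko (-0.58, adjusted p = 0.0090, 0.281 without the block). The labels do not state this pairing, which was taken from the values.

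PNPLA2 (chr11:818902-825573, plus strand) encodes ATGL, the lipase that takes the first fatty acid from a stored triacylglycerol. It was 122, 153 and 136 TPM in vector, 126, 93.4 and 87.4 TPM in HIF1α-ko, 138, 100.1 and 103 TPM in HIF2α-ko, and 211, 130.0 and 144 TPM in the dual knockout. The dual knockout lay above HIF1α-ko in every library and overlapped the other 2 groups. PNPLA2 was 0.64 higher in the dual knockout than in HIF1α-ko (SE 0.20, adjusted p = 0.0318), or 0.49 higher than in HIF2α-ko (adjusted p = 0.0660, 0.0010 with the replicate block, 0.0359 without HIF2α-ko replicate 1 and 0.0424 without dual knockout replicate 2). The first call was lost without HIF1α-ko replicate 2 or 3 or dual knockout replicate 1 or 3 (0.43 to 0.71, adjusted p from 0.0530 to 0.117), and with libraries scaled by median ratios (adjusted p = 0.105) or quantiles (adjusted p = 0.0703).

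No change of PNPLA2 against vector passed the test, at -0.43 without HIF1α, -0.28 without HIF2α and 0.21 without both, with intervals of -0.87 to 0.01, -0.71 to 0.16 and -0.23 to 0.65. They were -0.51, -0.36 and 0.13 without vector replicate 1, and under scaling by median ratios the last value turned to -0.02. The interaction was 0.92 (SE 0.29, adjusted p = 0.0399), and 1.00 without vector replicate 1 (adjusted p = 0.0290). It was lost when any 1 of 8 other libraries was left out, namely vector 2 or 3, HIF1α-ko 2 or 3, HIF2α-ko 2 or 3 and dual knockout 1 or 3, with values of 0.71 to 0.98 and adjusted p from 0.0581 to 0.0954, and under median ratio or quantile scaling (adjusted p = 0.132 and 0.0590).

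PLIN2 (chr9:19108375-19149290, minus strand), the perilipin that coats droplets in most cells that are not adipocytes, was measured at a low level. It was 1.98, 0.635 and 0.854 TPM in vector, 1.85, 1.01 and 0.980 TPM in HIF1α-ko, 1.39, 1.34 and 1.89 TPM in HIF2α-ko, and 0.385, 0.571 and 0.483 TPM in the dual knockout. Every dual knockout library lay below every library of the other 3 groups. PLIN2 fell by 0.78 in the dual knockout against HIF2α-ko (SE 0.22, adjusted p = 0.0130), a call lost without HIF2α-ko replicate 3 (-0.68, adjusted p = 0.0520). The differences of the dual knockout from HIF1α-ko (-0.61) and from vector (-0.50) had adjusted p of 0.0597 and 0.0863, the first 0.0223 with the replicate block and the second 0.0446 under median ratio scaling.

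PLIN2 differed from vector by 0.11 in HIF1α-ko (interval -0.37 to 0.59) and by 0.28 in HIF2α-ko (interval -0.20 to 0.76). Without vector replicate 1 these became 0.37 and 0.54, neither past the test, and the dual knockout difference shrank to -0.24. The interaction was -0.89 (adjusted p = 0.0640) and -1.15 without vector replicate 1 (adjusted p = 0.0059). Leaving out vector replicate 2 called the fall against vector (-0.67, adjusted p = 0.0388), and leaving out vector replicate 1 or 2 called the fall against HIF1α-ko (adjusted p = 0.0157 and 0.0497).

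PLIN3 (chr19:4838341-4867768, minus strand), a perilipin that moves from the cytosol to new droplets, was the more abundant coat gene on this scale per length. It was 172, 169.7 and 193 TPM in vector, 227, 191 and 189 TPM in HIF1α-ko, 153, 160.1 and 145 TPM in HIF2α-ko, and 148, 189.7 and 250.3 TPM in the dual knockout. The dual knockout spanned nearly the whole range of the 12 libraries, and HIF2α-ko lay below vector and HIF1α-ko. No comparison passed the test, with differences from vector of 0.18, -0.22 and 0.11 in HIF1α-ko, HIF2α-ko and the dual knockout and intervals of -0.18 to 0.54, -0.58 to 0.14 and -0.25 to 0.46, the first and last turning negative under scaling by median ratios. Leaving out vector replicate 1 gave 0.15, -0.25 and 0.08. Without dual knockout replicate 1, PLIN3 was called higher in the dual knockout than in HIF2α-ko (0.51, adjusted p = 0.0124), and HIF1α-ko was called above HIF2α-ko (0.40, adjusted p = 0.0371, and 0.0495 without dual knockout replicate 3).

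LPIN1 (chr2:11677595-11827409, plus strand) encodes lipin 1, the phosphatidate phosphatase that makes the diacylglycerol used for triacylglycerol. It was 24.1, 8.59 and 8.56 TPM in vector, 26.0, 31.6 and 27.3 TPM in HIF1α-ko, 18.8, 26.3 and 26.6 TPM in HIF2α-ko, and 51.8, 64.3 and 65.7 TPM in the dual knockout. Every dual knockout library lay above the 9 others, and 2 of the 3 vector libraries lay below all knockout libraries. LPIN1 rose by 2.22 in the dual knockout against vector (SE 0.31, adjusted p = 0.00012), a 4.65-fold change, and by 2.68 without vector replicate 1 (adjusted p = 2.0e-06, 6.40-fold). It was also 1.32 higher there than in HIF2α-ko (adjusted p = 0.0041). Against HIF1α-ko the difference was 1.07 (adjusted p = 0.0208), a call lost without HIF1α-ko replicate 1 or 3 or dual knockout replicate 2 or 3 (1.01 to 1.05, adjusted p from 0.0603 to 0.0677).

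In the single knockouts LPIN1 rose by 1.15 in HIF1α-ko (adjusted p = 0.0178) and differed by 0.90 in HIF2α-ko (adjusted p = 0.0814, 0.0444 under median ratio scaling). Without vector replicate 1 these were 1.61 and 1.36, both called (adjusted p = 0.00010 and 0.00055). The HIF1α-ko call was lost without vector replicate 2 or 3 (0.92 and 0.91) or HIF1α-ko replicate 2 or 3 (1.07 and 1.17), with adjusted p from 0.0528 to 0.0796. HIF1α-ko and HIF2α-ko did not differ detectably, by 0.25 (interval -0.42 to 0.91), and the dual change was near the sum of the single ones, with an interaction of 0.17 (interval -0.77 to 1.11), or -0.29 without vector replicate 1.

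DGAT1 (chr8:144314584-144326910, minus strand) and DGAT2 (chr11:75759512-75801535, plus strand) encode unrelated enzymes for the same last step, the joining of a fatty acid to diacylglycerol. DGAT1 was 13.0, 12.5 and 10.8 TPM in vector, 14.6, 14.4 and 10.8 TPM in HIF1α-ko, 12.1, 9.68 and 8.01 TPM in HIF2α-ko, and 16.9, 14.0 and 14.8 TPM in the dual knockout. The groups lay close together, the dual knockout just above vector and HIF2α-ko. DGAT1 was 0.58 higher in the dual knockout than in HIF2α-ko (SE 0.18, adjusted p = 0.0169), a call lost without HIF2α-ko replicate 3 (0.45, adjusted p = 0.0804) and with scaling by median ratios (0.33, adjusted p = 0.215) or quantiles (0.24, adjusted p = 0.367). Its differences from vector were 0.11, -0.28 and 0.30, none past the test, with intervals of -0.27 to 0.49, -0.66 to 0.10 and -0.08 to 0.69, and the first turned to -0.08 under median ratio scaling. They were 0.16, -0.23 and 0.36 without vector replicate 1. HIF1α-ko was 0.39 above HIF2α-ko, with an adjusted p of 0.120, or 0.0263 with the replicate block.

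DGAT2 was 8.69, 3.18 and 3.89 TPM in vector, 11.8, 9.39 and 8.27 TPM in HIF1α-ko, 6.76, 5.18 and 4.23 TPM in HIF2α-ko, and 11.3, 12.4 and 12.8 TPM in the dual knockout. The dual knockout lay above vector and HIF2α-ko in every library and overlapped HIF1α-ko, while vector replicate 1 reached into the HIF1α-ko range. DGAT2 rose by 1.17 in the dual knockout against vector (SE 0.28, adjusted p = 0.0041) and by 1.54 without vector replicate 1 (adjusted p = 0.00012). Against HIF2α-ko it was 1.06 higher (adjusted p = 0.0075), or 0.71 under quantile scaling (adjusted p = 0.0548). In HIF1α-ko it rose by 0.88 (adjusted p = 0.0346), and by 1.25 without vector replicate 1 (adjusted p = 0.00095).

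Leaving out vector replicate 2 or 3, or any 1 of the HIF1α-ko libraries, ended the call of DGAT2 in HIF1α-ko (0.64 to 0.99, adjusted p from 0.0603 to 0.139), as did median ratio or quantile scaling (0.71 and 0.69, adjusted p = 0.0780 and 0.0854). In HIF2α-ko the change was 0.11 (interval -0.48 to 0.71), or 0.48 without vector replicate 1 (adjusted p = 0.115). HIF1α-ko stood 0.77 above HIF2α-ko, with an adjusted p of 0.0585 that became 0.0045 with the replicate block, 0.0089 without vector replicate 1 and 0.0455 without vector replicate 2.

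FABP3 (chr1:31365625-31376850, minus strand), a fatty acid binding protein best known from heart and muscle, carries fatty acids through the cytosol. It was 180.4, 37.0 and 33.2 TPM in vector, 219.6, 215 and 201 TPM in HIF1α-ko, 175, 261 and 266 TPM in HIF2α-ko, and 231, 228 and 247 TPM in the dual knockout. The 9 knockout libraries lay between 175 and 266 TPM, 2 vector libraries lay far below them, and vector replicate 1 lay at their lower edge. FABP3 rose by 1.78, 1.90 and 1.94 in HIF1α-ko, HIF2α-ko and the dual knockout against vector (SE 0.47, adjusted p = 0.0159, 0.0227 and 0.0047), which is 3.44-fold, 3.74-fold and 3.83-fold. Leaving out vector replicate 1 made these rises 2.56, 2.68 and 2.71, or 5.90-fold, 6.40-fold and 6.56-fold (adjusted p = 4.0e-06, 1.4e-05 and 1.4e-06).

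The calls of FABP3 in the single knockouts were lost without vector replicate 2 or 3 (1.36 to 1.55, adjusted p from 0.0714 to 0.104), when vector replicate 1 made up 1 of the 2 vector libraries left, and for HIF2α-ko also without HIF2α-ko replicate 2 or 3 (1.81 and 1.80, adjusted p = 0.0800 and 0.0787). The 3 knockouts did not differ detectably from each other, with an interval of -1.13 to 0.89 for HIF1α-ko against HIF2α-ko, or -0.44 to 0.20 with the replicate block. The interaction was -1.75 (adjusted p = 0.0789) and -2.53 without vector replicate 1 (adjusted p = 4.7e-05).

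FABP5 (chr8:81280363-81284777, plus strand), the epidermal fatty acid binding protein, was 12.6, 7.30 and 7.93 TPM in vector and 9.30, 7.23 and 7.42 TPM in HIF1α-ko. It was 11.4, 8.62 and 7.60 TPM in HIF2α-ko and 16.6, 16.0 and 14.9 TPM in the dual knockout. The dual knockout lay above the 9 other libraries, which overlapped each other. FABP5 rose by 0.75 in the dual knockout against vector (SE 0.21, adjusted p = 0.0102, 1.68-fold), by 0.91 against HIF1α-ko (adjusted p = 0.0062) and by 0.74 against HIF2α-ko (adjusted p = 0.0113). The first and the last were lost under median ratio scaling (0.54 and 0.48, adjusted p = 0.0640 and 0.0970) and quantile scaling (0.43 and 0.39, adjusted p = 0.138 and 0.183), and the last also without HIF2α-ko replicate 3 (0.62, adjusted p = 0.0513).

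In the single knockouts FABP5 differed from vector by -0.17 and 0.01, with intervals of -0.61 to 0.28 and -0.44 to 0.46. Leaving out vector replicate 1 gave 0.05 and 0.23, and 0.97 in the dual knockout (adjusted p = 0.0012). The interaction was 0.90 (SE 0.29, adjusted p = 0.0455), but without vector replicate 1 it was 0.68 (adjusted p = 0.0517). It was also lost when any 1 of 8 other libraries was left out, all but vector replicate 2, HIF1α-ko replicate 1 and HIF2α-ko replicate 1, with values of 0.79 to 0.99 and adjusted p from 0.0576 to 0.109, and under median ratio or quantile scaling (adjusted p = 0.0803 and 0.116).

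Counts of the storage genes were read against those of all genes. In HIF1α-ko against vector, 3 of the 10 were called higher and 0 lower at an adjusted p under 0.05, where 17.3% of all genes tested were called higher and 8.77% lower. In HIF2α-ko the counts were 2 higher and 0 lower (5.07% and 5.89% of all genes), and in the dual knockout 4 higher and 1 lower (31.8% and 14.8%), the last near the background. Without vector replicate 1, 3, 4 and 5 of the 10 were called in either direction, against 35.8%, 21.3% and 48.5% of all genes. Over all genes the median change against vector was 0.18 after loss of HIF1α, -0.04 after loss of HIF2α and 0.21 after loss of both, and scaling by median ratios moved the first and the last to 0.01. Relative to it, the called changes in the dual knockout were -1.36 for HILPDA, 2.01 for LPIN1, 1.73 for FABP3, 0.97 for DGAT2 and 0.54 for FABP5, those in HIF1α-ko were 0.97 for LPIN1, 0.70 for DGAT2 and 1.61 for FABP3, and those in HIF2α-ko were 0.78 for HILPDA and 1.95 for FABP3.

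**Figure D2:**
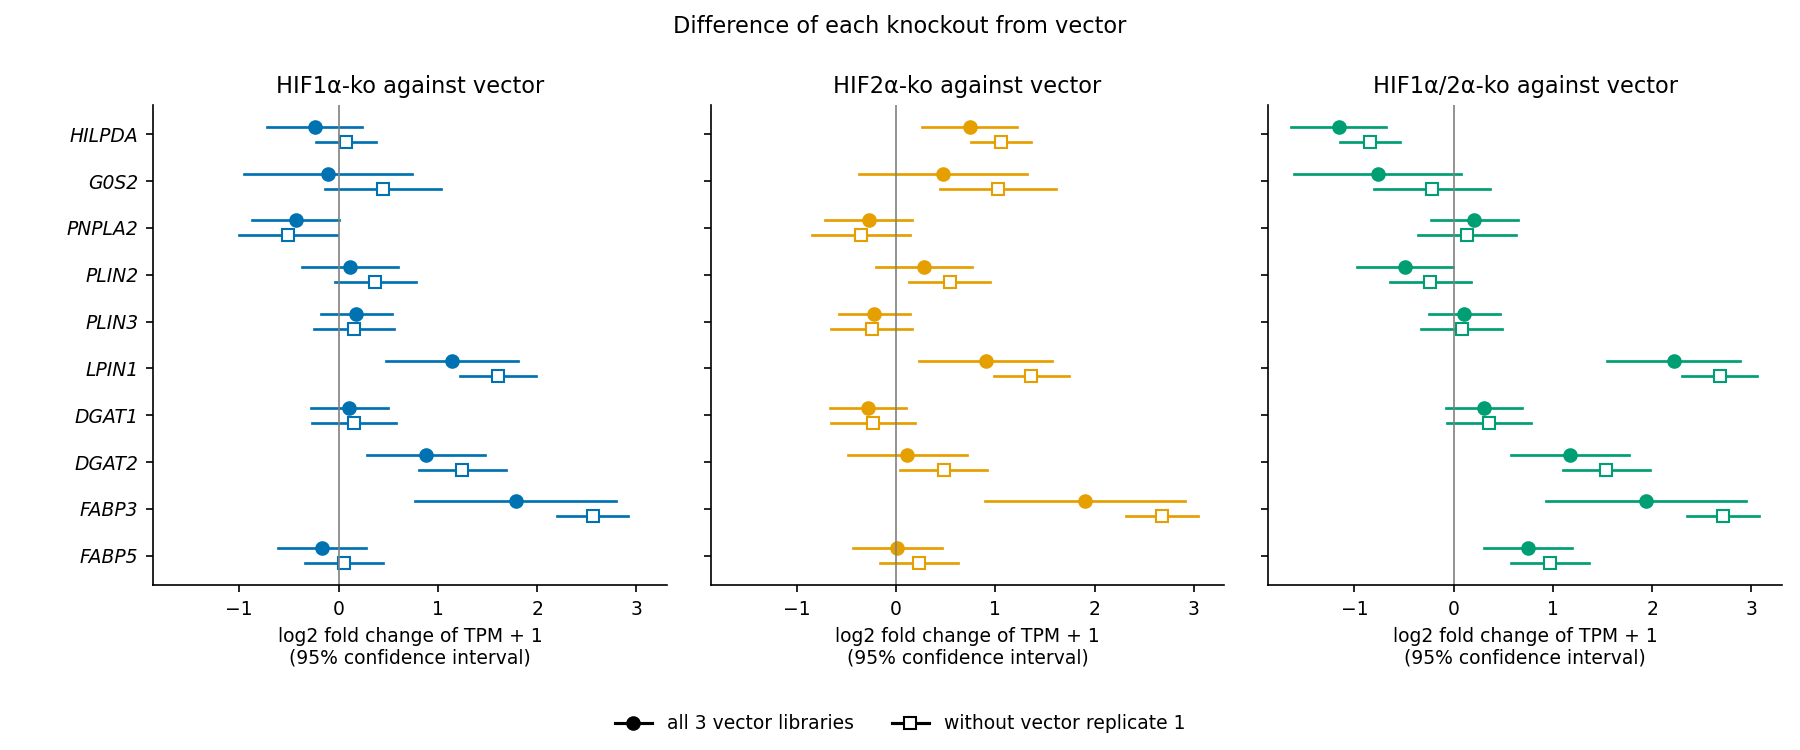
Log2 fold change of TPM + 1 of each storage gene in the 3 knockouts against vector, with 95% confidence intervals from limma, using all 3 vector libraries (filled circles) or leaving out vector replicate 1 (open squares). LPIN1 and FABP3 lie to the right of 0 in all 3 panels, at 2.22 and 1.94 in the dual knockout, and HILPDA lies at 0.74 in HIF2α-ko and -1.16 in the dual knockout.

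Between the knockouts, HILPDA was called in every comparison. Against HIF1α-ko the dual knockout had 3 storage genes higher, PNPLA2, LPIN1 and FABP5, and 1 lower, HILPDA (17.7% and 10.6% of all genes). Against HIF2α-ko it had 4 higher, LPIN1, DGAT1, DGAT2 and FABP5, and 3 lower, HILPDA, PLIN2 and G0S2 (33.5% and 12.9%). PLIN2 and G0S2 passed the low value filter mainly where they were high, so their calls here are partly built into it. With a filter at a mean of at least 5 TPM, which both genes fail, 5 of the 10 and 3825 of all genes were called. In HIF1α-ko against HIF2α-ko 0 were higher and 1, HILPDA, was lower (17.8% and 7.37%). With the replicate block 6, 8 and 4 of the 10 were called in these comparisons, against 48.5%, 62.6% and 50.5% of all genes. The interaction was called positive for PNPLA2 and FABP5 and negative for HILPDA, 2 and 1 of the 10 (13.2% and 7.35%), and for 5 without vector replicate 1 (30.4%). Median ratio scaling changed the split of calls, to 3 higher and 2 lower in the dual knockout against vector, 2 and 3 against HIF2α-ko, and 0 and 1 for the interaction. Under it 5454, 5216 and 2410 of all genes were called in either direction in these comparisons. Their split by direction is not given here, so the changed split is no result about the storage genes. Of the 25 calls over all 7 comparisons, 12 held with each library left out in turn, and 10 of these also held in each alternative that kept the test at an adjusted p under 0.05. These 10 were 5 calls of HILPDA (all but HIF2α-ko against vector), LPIN1 in the dual knockout against vector and against HIF2α-ko, DGAT2 and FABP3 in the dual knockout against vector, and FABP5 in the dual knockout against HIF1α-ko. Asking also for a log2 change of at least 1 left 7, without HILPDA in the dual knockout against HIF1α-ko and in HIF1α-ko against HIF2α-ko (-0.92 and -0.98) and without FABP5 (0.91). How many calls held in these ways over all genes was not counted.

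**Figure D3:**
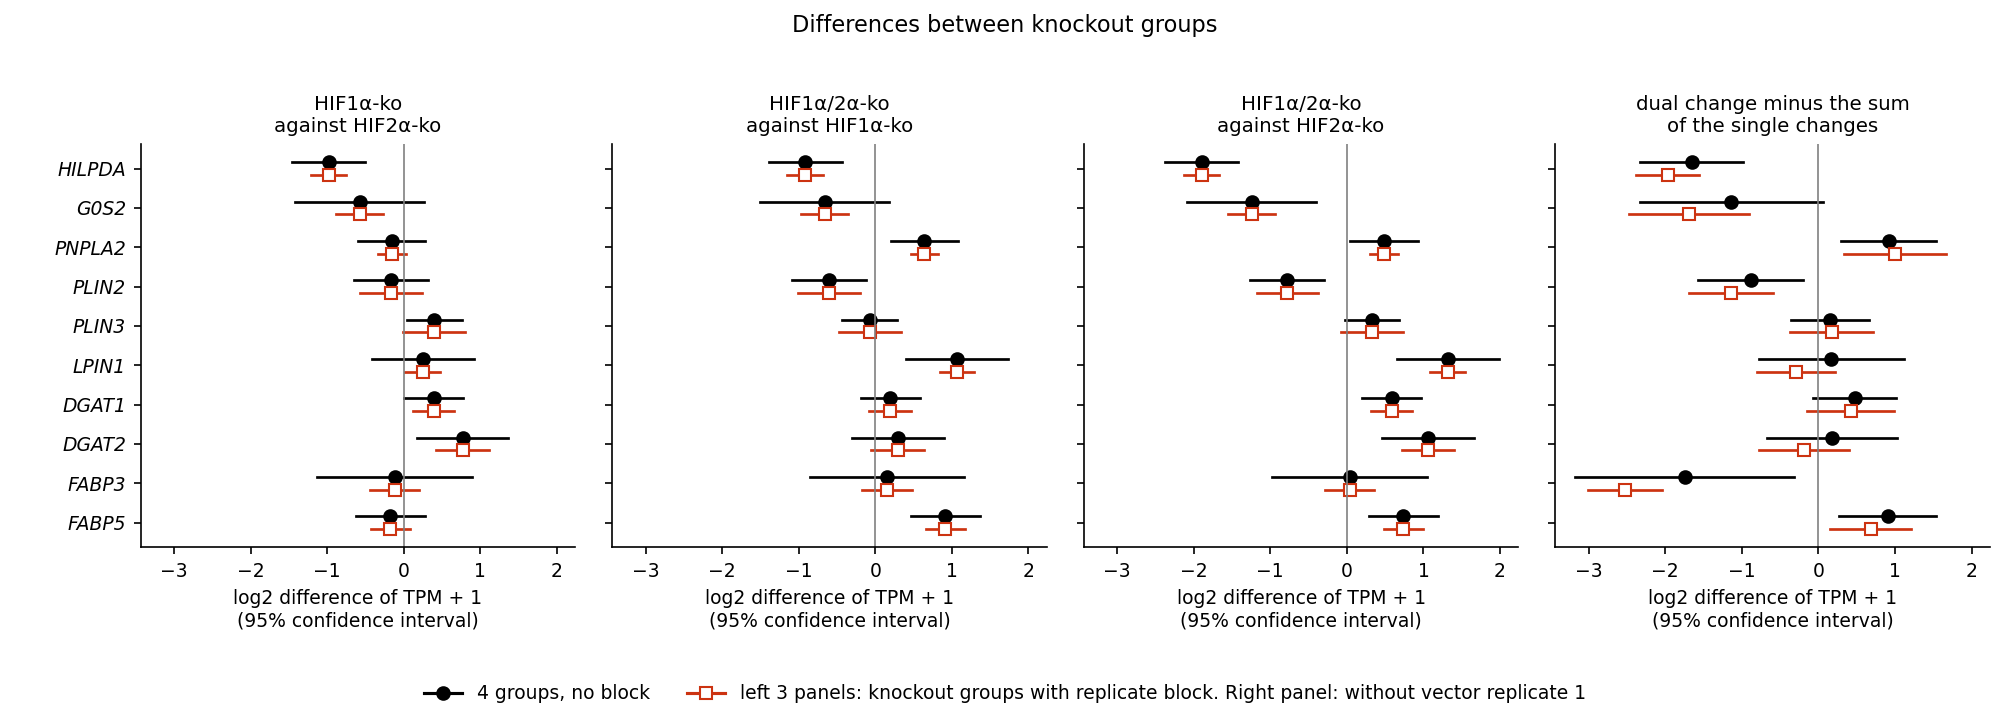
Log2 differences of TPM + 1 between the knockout groups and the interaction, with 95% confidence intervals, from the fit of all 4 groups (black circles) and, in red squares, from the 3 knockout groups with a replicate block (left 3 panels) or without vector replicate 1 (right panel). The black circles of HILPDA lie left of 0 in every panel, from -0.92 to -1.90, and FABP3 lies near 0 in the left 3 panels.

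Other lipid genes, in 6 lists that hold none of the 10, were read beside the set for the wider pathway. Of 15 droplet coat and assembly genes 8 passed the low value filter, and 1, 2 and 3 of these were called higher in HIF1α-ko, HIF2α-ko and the dual knockout, with 0, 0 and 1 lower, beside 17.3%, 5.07% and 31.8% of all genes higher and 8.77%, 5.89% and 14.8% lower. LDAF1, a partner of seipin in droplet formation, was 68.7 to 85.4 TPM in vector and 162 to 180.0 TPM in the dual knockout, a rise of 1.12 (adjusted p = 2.9e-05), and rose by 0.47 and 0.48 in HIF1α-ko and HIF2α-ko, the first ending as a call under median ratio scaling (0.27, adjusted p = 0.209). PLIN4, a perilipin of small droplets, was 1.65 to 1.76 TPM in vector, 3.70 to 5.02 TPM in HIF2α-ko and 5.90 to 7.68 TPM in the dual knockout, rising by 0.93 and 1.46 (adjusted p = 0.0058 and 2.8e-05). AUP1, a droplet surface protein, rose by 0.44 in the dual knockout (adjusted p = 0.0042), or by 0.21 under median ratio scaling (adjusted p = 0.208). The gene lower in the dual knockout was FITM2 (-0.45), named after its value was seen.

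All 7 lipolysis genes were tested, with 1 higher and 1 lower in HIF1α-ko, 0 called in HIF2α-ko and 3 higher and 1 lower in the dual knockout. The all-gene shares, higher and lower, were 17.3% and 8.77%, 5.07% and 5.89%, and 31.8% and 14.8%. PNPLA3, a relative of ATGL, was 4.43, 0.840 and 1.66 TPM in vector and 3.89 to 6.09 TPM in the knockouts, with rises of 1.14 in HIF1α-ko and 0.99 in the dual knockout (adjusted p = 0.0167 in both). Its vector replicate 1 stood apart, and without it the changes were 1.57 in HIF1α-ko, 1.27 in HIF2α-ko (adjusted p = 0.0013) and 1.42 in the dual knockout. DDHD2, a triacylglycerol lipase of the brain, fell by 0.63 in HIF1α-ko and by 0.81 in the dual knockout (adjusted p = 0.0378 and 0.0060). ABHD6, a monoacylglycerol lipase, rose by 0.81 in the dual knockout (adjusted p = 0.0060). The remaining call there was ABHD5 (0.70), the coactivator of ATGL, named after its value was seen. For HIF2α-ko without vector replicate 1, 1 was higher, PNPLA3, and 1 lower, ABHD6 (-0.65, adjusted p = 0.0339), when 21.3% of all genes were called in either direction.

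Of 16 glycerolipid and sterol ester synthesis genes 11 were tested, and their calls went both ways: 1 higher and 1 lower in HIF1α-ko and in HIF2α-ko, 3 higher and 2 lower in the dual knockout. The all-gene shares, higher and lower, were 17.3% and 8.77%, 5.07% and 5.89%, and 31.8% and 14.8%. AGPAT3, an acyltransferase, rose by 0.65 in the dual knockout (adjusted p = 0.0037), and by 0.45 in HIF1α-ko without vector replicate 1 (adjusted p = 0.0134, 0.162 with it), while its relative AGPAT1 fell by 0.45 in HIF2α-ko and by 0.40 in the dual knockout (adjusted p = 0.0211 and 0.0098), the former ending as a call under median ratio scaling (-0.41, adjusted p = 0.0984). SOAT2, a sterol esterifying enzyme, was 0.463 to 1.17 TPM in vector and 0.0715 to 0.140 TPM in the dual knockout, a fall of 0.76 (adjusted p = 0.0017). It reached 1 TPM in 5 libraries, all of vector or HIF2α-ko, so this fall is partly built into the low value filter. The other calls, named after their values were seen, were AGPAT5 (-0.93 in HIF1α-ko and 1.16 in HIF2α-ko), GPAT4 (0.78 in HIF1α-ko and 0.53 in the dual knockout) and GPAT3 (0.95 in the dual knockout).

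Of 22 genes for fatty acid uptake, binding and activation 13 were tested, with 4 higher and 1 lower in HIF1α-ko, 1 higher in HIF2α-ko, and 5 higher and 1 lower in the dual knockout, where the all-gene shares were 17.3% and 8.77%, 5.07% and 5.89%, and 31.8% and 14.8%. The higher counts became 7, 7 and 7 without vector replicate 1, when 35.8%, 21.3% and 48.5% of all genes were called in either direction. SLC27A4, a fatty acid transport protein with acyl-CoA synthetase activity, was 0.636 to 0.787 TPM in vector, 1.34 to 1.96 TPM in HIF1α-ko and 6.32 to 8.80 TPM in the dual knockout. It rose by 0.66 and 2.39 (adjusted p = 0.0140 and 1.5e-06), with an interaction of 1.31 (adjusted p = 0.0036). SLC27A4 reached 1 TPM in 8 libraries, all of knockout groups, so its rise against vector is partly built into the low value filter. ACSL3, an acyl-CoA synthetase of nascent droplets, was 17.9, 5.26 and 6.38 TPM in vector and 32.9 to 40.0 TPM in the dual knockout, rising by 1.34 in HIF1α-ko and 1.97 in the dual knockout (adjusted p = 0.0122 and 0.00045). Without vector replicate 1, which stood apart, ACSL3 rose by 1.83 and 2.46 there and by 1.05 in HIF2α-ko (adjusted p = 0.0040). SLC27A5 rose by 0.80 in the dual knockout (adjusted p = 0.0016). Named after their values were seen, VLDLR, a lipoprotein receptor, fell by 1.57 in HIF1α-ko and by 0.54 in the dual knockout, ACSL1 rose by 1.32 and 1.10 in these groups, SLC27A1 by 0.42 in HIF1α-ko, ACSL4 by 0.85 in the dual knockout and SLC27A3 by 0.78 in HIF2α-ko.

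Of 14 mitochondrial fatty acid oxidation genes 13 were tested, with 3 higher and 1 lower in HIF1α-ko, 2 higher in HIF2α-ko, and 4 higher and 1 lower in the dual knockout. The all-gene shares, higher and lower, were 17.3% and 8.77%, 5.07% and 5.89%, and 31.8% and 14.8%, the last near the dual knockout counts. Under median ratio scaling 1 was higher and 3 lower there, when 5454 of the 11731 genes tested were called in either direction. CPT1A, the gate for fatty acids into mitochondria, was 5.86 to 6.11 TPM in vector, 12.2 to 14.5 TPM in HIF1α-ko, 4.37 to 5.93 TPM in HIF2α-ko and 31.7 to 34.6 TPM in the dual knockout. It rose by 1.07 in HIF1α-ko and by 2.31 in the dual knockout (adjusted p = 0.00058 and 7.1e-07), with an interaction of 1.38 (adjusted p = 0.0016), and vector replicate 1 did not stand apart for it. HADHA, a subunit of the trifunctional protein, rose by 0.34 in the dual knockout (adjusted p = 0.0144), or by 0.11 under median ratio scaling (adjusted p = 0.448). ACAA2, a thiolase, fell by 0.51 (adjusted p = 0.0218). Named after their values were seen, ACADS rose in all 3 knockouts (0.74, 0.95 and 0.35), ECHS1 in HIF2α-ko and the dual knockout (0.49 and 0.32) and SLC25A20 in HIF1α-ko (0.51), while ACADVL fell in HIF1α-ko (-0.71).

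Of 5 PPAR regulators 4 were tested, 1 higher in HIF1α-ko, 0 called in HIF2α-ko, and 2 higher and 1 lower in the dual knockout. The all-gene shares, higher and lower, were 17.3% and 8.77%, 5.07% and 5.89%, and 31.8% and 14.8%, and 4 genes are too few to set against them. PPARG, the nuclear receptor that drives fat storage genes in adipocytes, was 11.4 to 14.9 TPM in vector and 37.3 to 42.9 TPM in the dual knockout, a rise of 1.60 (adjusted p = 1.1e-05) with an interaction of 0.93 (adjusted p = 0.0117), and its change of 0.48 in HIF2α-ko (adjusted p = 0.0669) was called without vector replicate 1 (0.58, adjusted p = 0.0195) or under median ratio scaling (0.52, adjusted p = 0.0209). PPARD, a receptor that fatty acids activate, rose by 0.45 in HIF1α-ko and 0.77 in the dual knockout (adjusted p = 0.0320 and 0.00071), the first ending as a call under median ratio scaling (0.26, adjusted p = 0.175). The coactivator PPARGC1A fell by 0.76 in the dual knockout (adjusted p = 0.0035), from 0.763 to 1.29 TPM in vector to 0.120 to 0.277 TPM, a fall partly built into the filter, since it reached 1 TPM in 4 libraries, all of vector or HIF1α-ko. The median change in the dual knockout was 0.38 for coat and assembly, 0.32 for lipolysis, -0.08 for synthesis, 0.35 for uptake, 0.25 for oxidation and 0.57 for the PPAR list, against 0.21 for all genes and 0.26 for the 10 storage genes. Without vector replicate 1 the dual knockout counts, higher and lower, were 3 and 2 for coat and assembly, 2 and 1 for lipolysis, 3 and 2 for synthesis, 7 and 1 for uptake, 4 and 2 for oxidation and 2 and 1 for the PPAR list. In HIF1α-ko they were then 2 and 1, 2 and 1, 3 and 1, 7 and 1, 4 and 1, and 1 and 0, and in HIF2α-ko 2 and 2, 1 and 1, 2 and 1, 7 and 0, 2 and 1, and 1 and 0. Of all genes 48.5%, 35.8% and 21.3% were then called in either direction in the dual knockout, HIF1α-ko and HIF2α-ko. The calls gained in HIF2α-ko included AUP1 (-0.29, adjusted p = 0.0427) and HADHA (-0.30, adjusted p = 0.0420). Under median ratio scaling the dual knockout counts were 2 and 2, 3 and 1, 2 and 3, 4 and 3, 1 and 3, and 2 and 1, when 5454 of all genes were called in either direction.

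**Figure D4:**
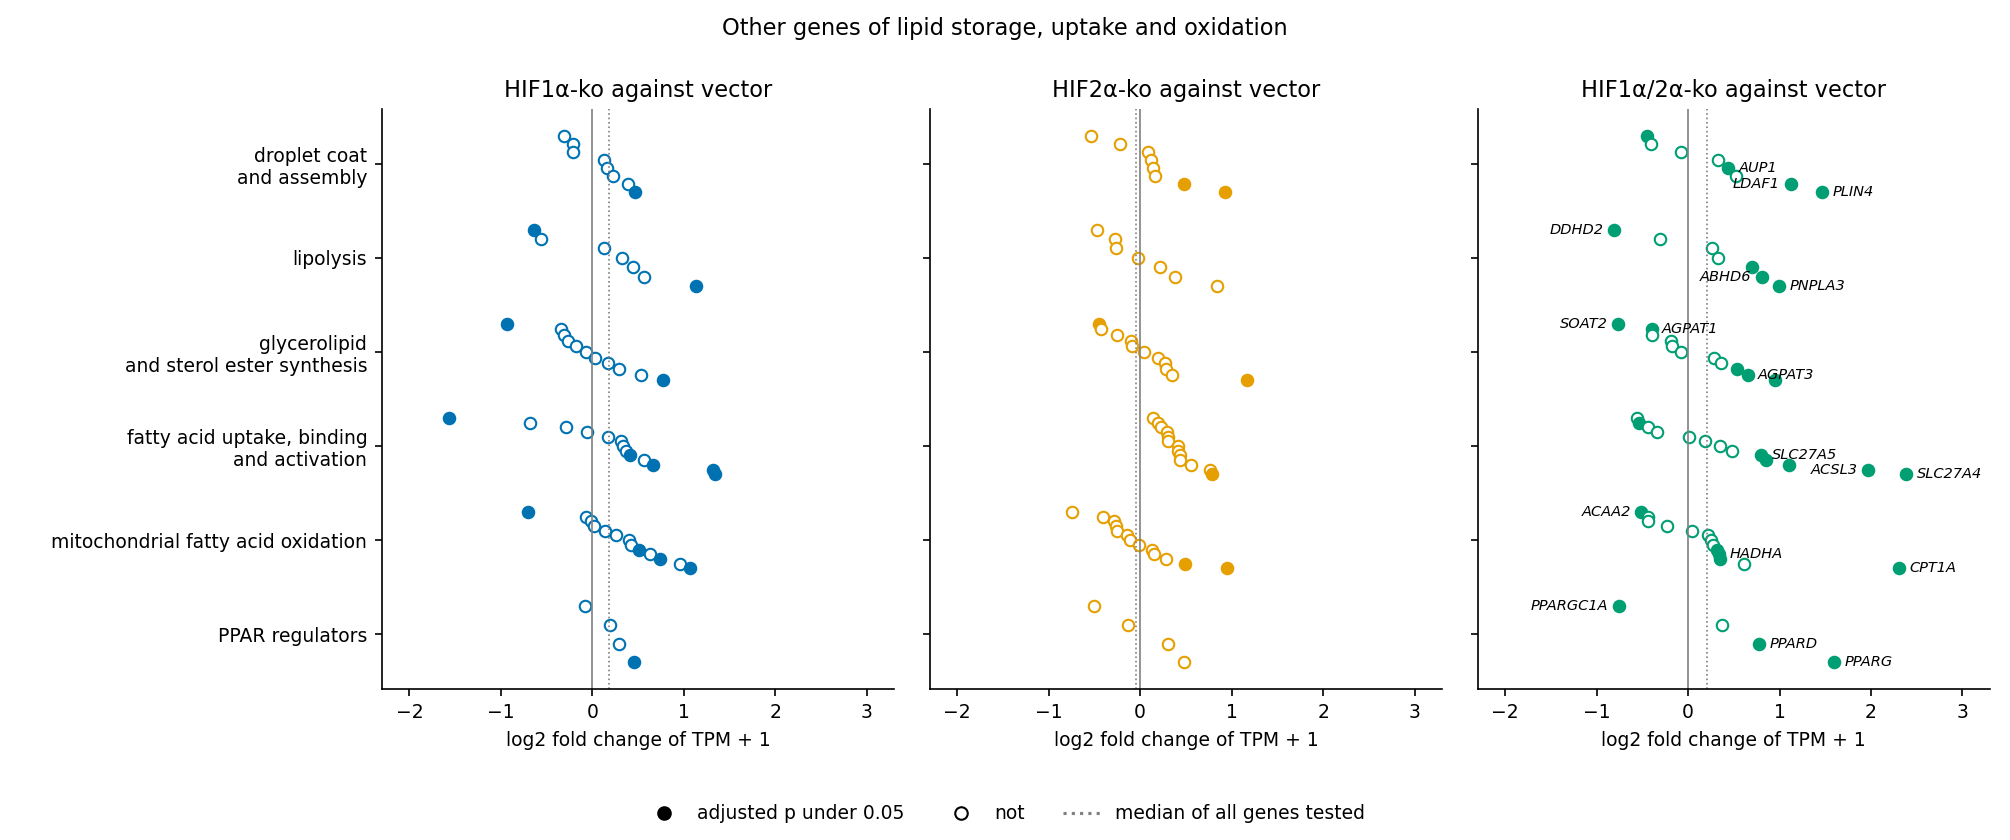
Log2 fold change of TPM + 1 against vector of each tested gene of 6 lipid gene lists, 1 panel a knockout, filled where the adjusted p was under 0.05, with the median of all genes tested as a dotted line (0.18, -0.04 and 0.21). In the dual knockout SLC27A4 (2.39), CPT1A (2.31), ACSL3 (1.97) and PPARG (1.60) lie farthest right.

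The genes whose profiles over the 12 libraries were most like those of 3 storage genes were found by the root mean square difference of log2(TPM + 1) about each gene's own mean. HILPDA was nearest to MINDY1 (0.199), TCF19 (0.212) and HIST2H2AA3 (0.216), where its own spread about its mean was 0.724. MINDY1 averaged 15.5 TPM in vector, 11.2 TPM in HIF1α-ko, 20.8 TPM in HIF2α-ko and 5.65 TPM in the dual knockout. LPIN1 was nearest to ST3GAL1 (0.212), TM2D3 (0.234) and NPLOC4 (0.242), and FABP3 to TRPV2 (0.261), HSPA1B (0.317) and HSPA1A (0.338). HSPA1A and HSPA1B are near-identical copies, as is a neighbour of HIST2H2AA3, so reads could be split between copies and these levels are uncertain. The likenesses are descriptions over 12 libraries that share their 4 groups.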

How the data were processed

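Poly(A) RNA libraries of U87 cells were compared in 4 groups of 3. The deposited table holds TPM per gene, made by the authors. The submitters' processing notes name FastQC 0.11.2, Trimmomatic 0.36, HISAT2 2.0, bedtools 2.26.0 and GRCh38, and the counting tool and strand setting are not given in the sources used here. TPM is divided by transcript length and scaled within a library, so a large change in some genes shifts all others, and it keeps no sequencing depth: each column sums to between 999955 and 999982, the depth is unknown, and no counting interval was computed. Gene symbols were matched through a list of gene names for 20148 of 20263 identifiers, with GENCODE 29 used for the rest where it held them. HILPDA, DGAT1, DGAT2 and FABP5 had no RefSeq promoter window here.

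Genes with at least 1 TPM in at least 3 libraries were fitted as log2(TPM + 1) with limma 3.58.1 in R 4.3.3 (empirical Bayes with a mean-variance trend), all 4 groups in 1 fit without a replicate block, with Benjamini-Hochberg adjustment within each of 7 comparisons and a threshold of 0.05. On this scale, changes of low genes come out too small. Tables were made with pandas 2.3.3 and numpy 2.4.6, figures with matplotlib 3.10.9, all under Python 3.11.15. The code was tested on simulated data. The 10 genes, the 6 lists and the tests were chosen with earlier results of these data known. Named beside the 10 were the targeted genes, up to 3 genes per list with the smallest p in the dual knockout against vector, and the 3 nearest profiles of HILPDA and of the 2 other members that changed most there. PLIN1, CIDEC and FABP4 are both adipocyte markers and members of these lists.

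The labels give the same replicate numbers in every group. Deviations from group means correlated between same-numbered libraries of the knockout groups (r across genes from 0.463 to 0.508 for number 1, from 0.227 to 0.25 for number 2, from 0.196 to 0.222 for number 3) and less so between vector and a knockout group (-0.0265 to 0.163), so for differences between knockout groups the replicate block was read among these groups only. A block over all 4 groups, vector included, was kept as 1 of the alternatives. This pairing comes from the values, not from the labels, so p-values with the block rest on a choice made from these data. The alternatives were another pseudocount, no filter or a stricter one, median ratio or quantile scaling, no trend, only the groups compared, the replicate block, a minimum log2 change of 1, each library left out and, chosen after seeing the data, replicates 2 and 3 only.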

Additional observations from a re-analysis of the deposited data

Results flagged for a closer look

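For 3 storage genes the change in HIF2α-ko against vector was unlike that in the dual knockout against HIF1α-ko, by the interaction test of limma over all genes. The cause was not tested. HILPDA changed by 0.74 in the first comparison and by -0.92 in the second, an interaction of -1.65. PNPLA2 changed by -0.28 and 0.64, an interaction of 0.92. FABP5 changed by 0.01 and 0.91, an interaction of 0.90. The HILPDA value passed the test in every alternative, with each library left out as well, whereas those of PNPLA2 and FABP5 did not, at adjusted p up to 0.132 and 0.116.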

How the results depend on the processing

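Of 629 values of the 10 genes under alternatives other than leaving out 1 library, 566 kept their side of the threshold, 30 lost the call and 32 gained one. Over all alternatives, leaving out 1 library included, 35 values below the threshold in both fits changed sign. The interaction of LPIN1 reversed, from 0.17 to -0.40 with replicates 2 and 3 only, an alternative chosen after seeing the data in which G0S2 was not tested. Leaving out 1 library gave 840 values, of which 768 kept their call, 56 lost it and 16 gained one. The cause of these changes was not tested. TPM gives no depth, so the precision of low genes such as G0S2 and PLIN2 is unknown.

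Against vector, the test called 3060 genes after loss of HIF1α, 1286 after loss of HIF2α and 5473 in the dual knockout, with 3322 in the dual knockout against HIF1α-ko, 5442 against HIF2α-ko, 2949 in HIF1α-ko against HIF2α-ko and 2414 for the interaction. In that order a log2 change of at least 1 left 814, 263, 2193, 1000, 2160, 764 and 1376. Replicates 2 and 3 only gave 6365 and 4253 for the single knockouts, 5180 for the dual knockout against HIF1α-ko, 5446 for HIF1α-ko against HIF2α-ko and 4935 for the interaction. In HIF2α-ko against vector, only the groups compared gave 474 and the replicate block 2068. Among the knockout groups, the replicate block gave 5684 for the dual knockout against HIF1α-ko and 5927 for HIF1α-ko against HIF2α-ko.

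Of the 10 genes, 3, 2, 5, 4, 7, 1 and 3 were called in these comparisons. With only the groups compared 0 were called in HIF1α-ko and 0 in HIF2α-ko, where 2141 and 474 of all genes were called. In HIF2α-ko the count was also 0 with no filter, 1 with a pseudocount of 0.1, with no trend or with a log2 change of at least 1, and 5 with replicates 2 and 3 only. The all-gene counts were then 1170 with no filter, 1253 with that pseudocount, 1219 with no trend, 263 with the log2 change and 4253 with replicates 2 and 3. A log2 change of at least 1 left 1 for the dual knockout against HIF1α-ko, 4 against HIF2α-ko, 0 for HIF1α-ko against HIF2α-ko and 1 for the interaction. Of all genes it left 1000, 2160, 764 and 1376. Quantile scaling gave 4 for the dual knockout against HIF2α-ko, where 5350 of all genes were called. HIF1α-ko against HIF2α-ko had 3 with only the groups compared, with the replicate block over all 4 groups and with replicates 2 and 3 only, and 4 with the block among knockout groups. Of all genes these settings called 3913, 3991, 5446 and 5927. The interaction had 1 with no filter, median ratio or quantile scaling and 6 with replicates 2 and 3 only, against 2224, 2410, 2662 and 4935 of all genes.

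With 1 library left out, the counts of all genes ran from 1539 to 4187, 471 to 2494, 4273 to 5914, 2255 to 4064, 4177 to 5993, 1437 to 3743 and 1539 to 3552, and those of the 10 genes from 0 to 3, 0 to 4, 5 to 6, 2 to 5, 4 to 8, 1 to 2 and 1 to 5. The highest counts of all genes came without vector replicate 1, except in the dual knockout against vector, where they came without its replicate 1.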
